A study of Mus musculus with 62 samples.

Results

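The satellite cell and myogenic regulators described here are 8 genes, Pax7, Pax3, Myf5, Myod1, Myf6, Mef2c, Cdkn1a and Cdkn1c, taken by symbol from a table of 47643 genes measured by RNA-sequencing in mouse diaphragm. All 8 were in the table, and all 8 were among the 13578 genes that reached a level of 1 TPM in at least 5 mice and were tested. TPM is the share of a gene's transcripts among all transcripts of a library, corrected for length. The study followed the diaphragm, the main muscle of breathing, in mice that received cachectic melanoma cells, non-cachectic melanoma cells or a mock injection, at 2, 4, 6 and 8 weeks after injection. The 12 conditions had 5 mice each, or 7 for the cachectic group at 8 weeks, which makes 62 mice in all. All of them were female. The study's methods give 2 months as their age when purchased, and collection came 2 to 8 weeks after injection, so 2 months is not the age at collection. The series design text describes them as NCI Ath/nude mice, which lack a thymus and so accept human tumor cells, whereas the sample labels give the strain as C57BL6/J. The cachectic and the non-cachectic tumor were each 1 patient-derived melanoma xenograft, so a difference between tumor-bearing groups cannot be told apart from any other difference between those 2 tumors. The replicates are described as biological replicates.

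Satellite cells are the stem cells of skeletal muscle, and they lie between the muscle fiber and its sheath. They are marked by the paired-box transcription factor Pax7, and a share of them in some muscles, the diaphragm included, also expresses its relative Pax3. When fiber repair is called for, the activated cells carry the basic helix-loop-helix myogenic factors Myf5 and Myod1, and later leave the cell cycle and fuse. Myf6, also called Mrf4, is the myogenic factor that stays abundant in mature fibers, and Mef2c is a MADS-box factor that activates muscle genes together with them. Cdkn1a (p21) and Cdkn1c (p57) inhibit cyclin-dependent kinases and are used by differentiating myoblasts to stop dividing, and Cdkn1a is also a classical target of p53. A whole diaphragm holds mostly fiber RNA.

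The levels of the 8 genes followed that division. Ordered by the median over the 62 mice, Mef2c was highest at 112 TPM, above 95.2% of all genes tested, followed by Myf6 at 74.1 TPM, Cdkn1a at 21.6 TPM, Cdkn1c at 12.9 TPM and Myod1 at 9.49 TPM. The lowest 3 were Pax3 at 2.95 TPM, Myf5 at 2.74 TPM and Pax7 at 1.55 TPM, the last above only 16.8% of the genes tested. The ranges of Pax3 (0.303 to 4.44 TPM) and Myf5 (0.771 to 5.46 TPM) overlapped almost entirely. Those of Cdkn1c (3.89 to 18.1 TPM) and Myod1 (1.35 to 19.99 TPM) did so as well. These ranges pool all mice, and the order within each pair was not compared mouse by mouse. Pax7 reached 1 TPM in 54 mice, Pax3 in 58 and Myf5 in 60. TPM divides by gene length, so these levels can be set side by side between genes.

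**Figure D1:**
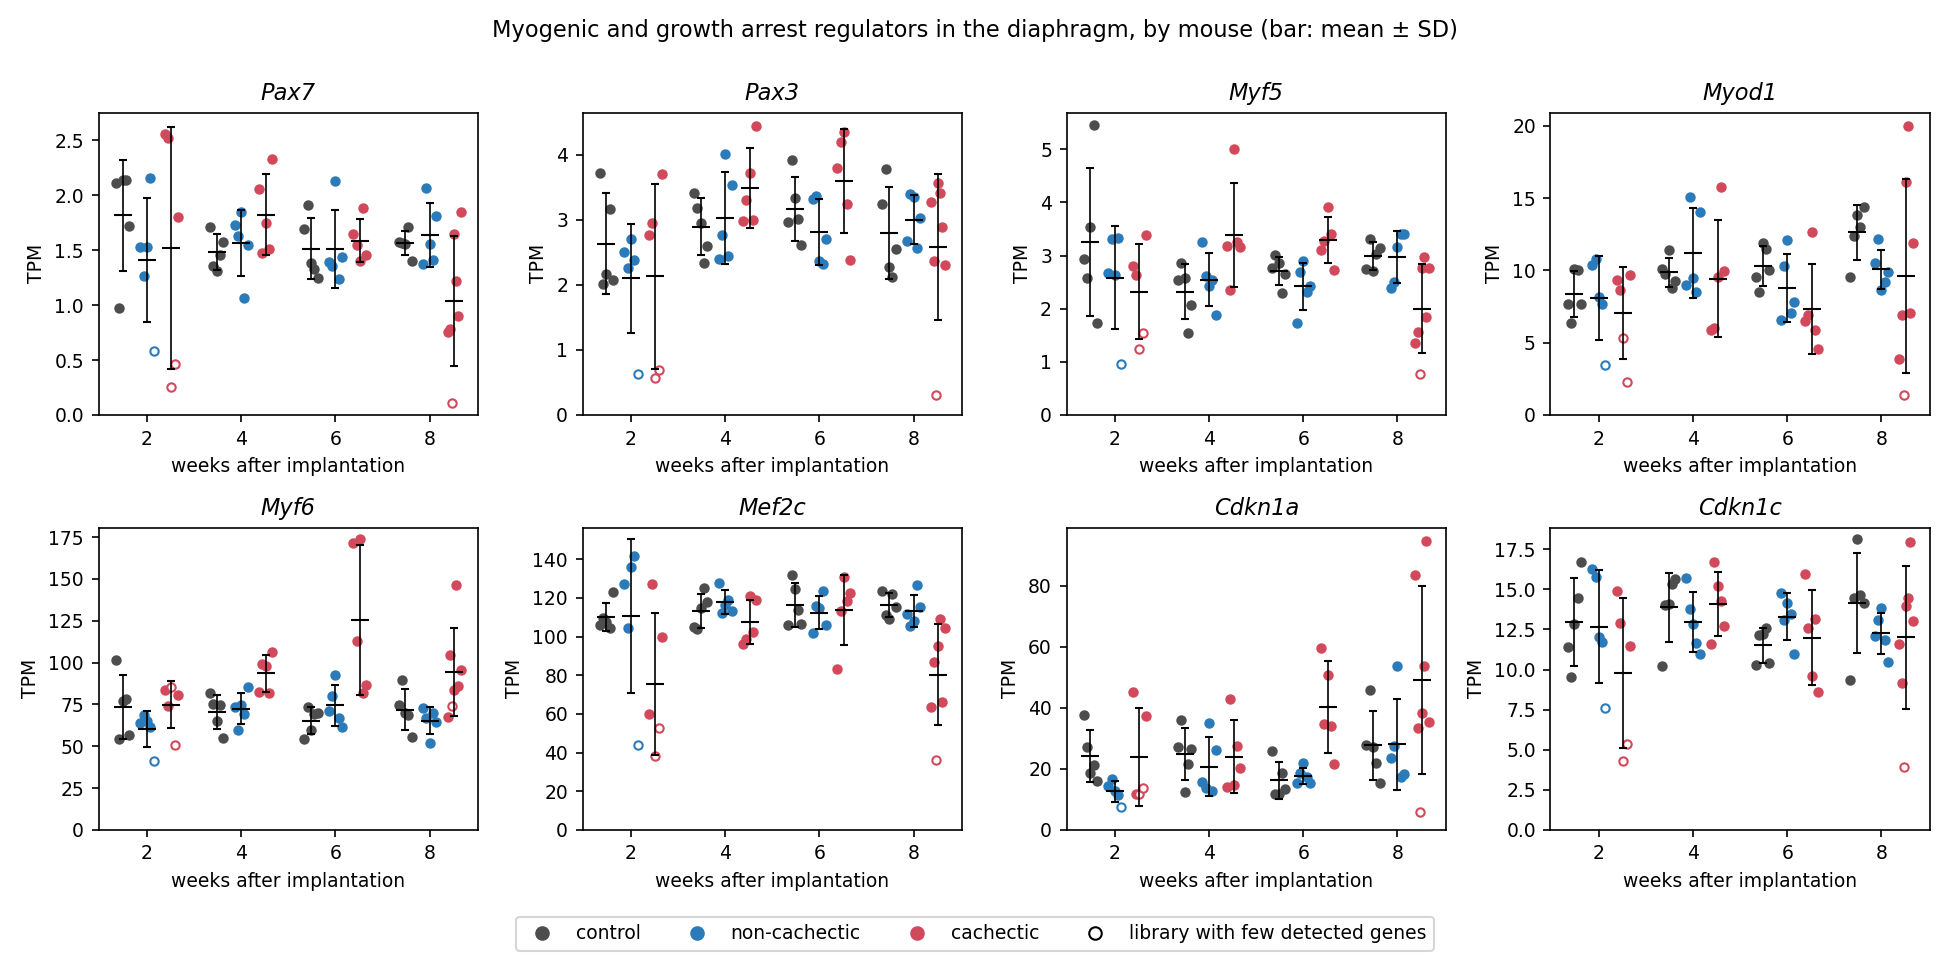
Level of each of the 8 genes in TPM (vertical axes, each with its own scale) against weeks after injection for control, non-cachectic and cachectic mice; each point is 1 mouse. Cachectic mice at 6 weeks lie above all control mice for Myf6 (81.5 to 174 against 54.0 to 73.5 TPM), and 6 of the 7 cachectic mice at 8 weeks lie below all control mice for Mef2c. The shares of all genes that separate in these ways are not given.

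In the GENCODE annotation of GRCm38, Myf5 (chr10:107482908-107486134) and Myf6 (chr10:107492853-107494737) are neighbours on the minus strand, 6718 bases apart. Mef2c (chr13:83504034-83667080, plus strand) is the longest of the 8, with 31 annotated transcripts. The other genes are Pax7 (chr4:139737062-139833528, minus), Pax3 (chr1:78101267-78197134, minus), Myod1 (chr7:46376474-46379099, plus), Cdkn1a (chr17:29090976-29100727, plus) and Cdkn1c (chr7:143458339-143461050, minus). Cdkn1a and Cdkn1c each overlap a gene on the opposite strand (AC167363.2 and Gm44732). The strand setting of the counting is not given in the sources used here, so reads of these 2 pairs cannot be told apart.

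Promoter windows from RefSeq (GRCm38.p6), running from 250 bases before to 50 bases after an annotated start, were at hand for 4 of the 8 genes. Those of Mef2c, Cdkn1a and Myf5 that hold a match to a searched motif are printed below. Mef2c passed the test against control mice, as described further on. Cdkn1a passed it in no comparison of the main fit, which kept every mouse, and only in some alternative fits. Myf5 is a member with a single start. The motifs, searched on both strands, were the E-box CANNTG bound by myogenic helix-loop-helix factors, the MEF2 core (CTA and TAG separated by 4 bases) and a pair of p53 core elements (CATG and CATG separated by 6 bases), and matches are in capitals. Of all 32851 such windows, 72.3% hold an E-box, 3.69% a MEF2 core and 0.712% the p53 pair.
Cdkn1a, chr17:29090729-29091028, plus strand: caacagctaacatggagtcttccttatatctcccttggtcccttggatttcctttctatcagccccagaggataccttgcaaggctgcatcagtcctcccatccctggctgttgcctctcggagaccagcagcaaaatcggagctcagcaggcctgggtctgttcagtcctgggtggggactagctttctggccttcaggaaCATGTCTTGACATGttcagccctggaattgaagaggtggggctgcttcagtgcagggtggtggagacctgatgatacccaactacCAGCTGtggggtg
Cdkn1a, chr17:29093519-29093818, plus strand: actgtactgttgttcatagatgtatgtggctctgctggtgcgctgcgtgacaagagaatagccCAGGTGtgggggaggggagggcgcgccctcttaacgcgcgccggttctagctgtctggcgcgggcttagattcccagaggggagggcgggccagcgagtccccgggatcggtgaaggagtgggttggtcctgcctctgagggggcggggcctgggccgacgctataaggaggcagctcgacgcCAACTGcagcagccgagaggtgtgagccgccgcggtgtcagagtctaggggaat
Mef2c, chr13:83503784-83504083, plus strand: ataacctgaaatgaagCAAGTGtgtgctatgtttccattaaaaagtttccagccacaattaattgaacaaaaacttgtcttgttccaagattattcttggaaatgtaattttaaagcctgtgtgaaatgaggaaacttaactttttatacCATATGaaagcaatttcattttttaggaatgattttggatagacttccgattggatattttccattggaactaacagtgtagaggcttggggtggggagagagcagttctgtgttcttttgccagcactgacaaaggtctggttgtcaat
Mef2c, chr13:83573357-83573656, plus strand: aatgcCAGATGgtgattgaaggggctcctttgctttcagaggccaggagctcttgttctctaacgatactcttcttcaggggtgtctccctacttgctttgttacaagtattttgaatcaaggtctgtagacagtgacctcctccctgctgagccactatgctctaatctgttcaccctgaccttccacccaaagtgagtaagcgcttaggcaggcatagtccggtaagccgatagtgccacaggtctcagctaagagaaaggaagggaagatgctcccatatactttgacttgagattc
Myf5, chr10:107486085-107486384, minus strand: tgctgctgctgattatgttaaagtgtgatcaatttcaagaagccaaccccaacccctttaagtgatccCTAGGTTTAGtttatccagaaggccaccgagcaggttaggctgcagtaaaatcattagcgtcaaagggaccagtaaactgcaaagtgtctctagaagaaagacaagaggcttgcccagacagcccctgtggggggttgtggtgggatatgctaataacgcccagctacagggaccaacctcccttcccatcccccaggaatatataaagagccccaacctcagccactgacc
The first Cdkn1a window holds the p53 pair CATGTCTTGACATG and 1 E-box, CAGCTG. The second holds 2 E-boxes, CAGGTG and CAACTG, the first Mef2c window holds CAAGTG and CATATG, and the second Mef2c window holds CAGATG. The Myf5 window holds the MEF2 core CTAGGTTTAG and no E-box. These matches describe the letters of the windows, not bound sites.

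All 15 markers of mature muscle fiber were above 0 TPM in every condition, and their summed level in cachectic mice at 8 weeks ran from 48151 to 101204 TPM, with the lowest in replicate 3. Of the cachectic libraries, replicates 3 and 4 of week 2 and replicate 3 of week 8, and of the non-cachectic ones replicate 5 of week 2, stood apart. These 4 had 15069 to 16389 genes above 0, against 17909 to 19057 in the other 58. Mitochondrially encoded genes took 54.4 to 61.5% of their TPM, against 32.5 to 50.1% elsewhere. In these 4 libraries Pax7, Pax3, Mef2c and Cdkn1c were below all other 58 mice in 4 of 4, Myf5 and Myod1 in 3 of 4, and Myf6 and Cdkn1a in 2 of 4. Another 4 libraries, control replicates 2, 4 and 5 at 2 weeks and cachectic replicate 5 at 6 weeks, held the most RNA of liver genes. The total read counts are not known from TPM, so the counting error of single values is unknown. The members' differences from control mice at 8 weeks are given with and without them.

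**Figure D2:**
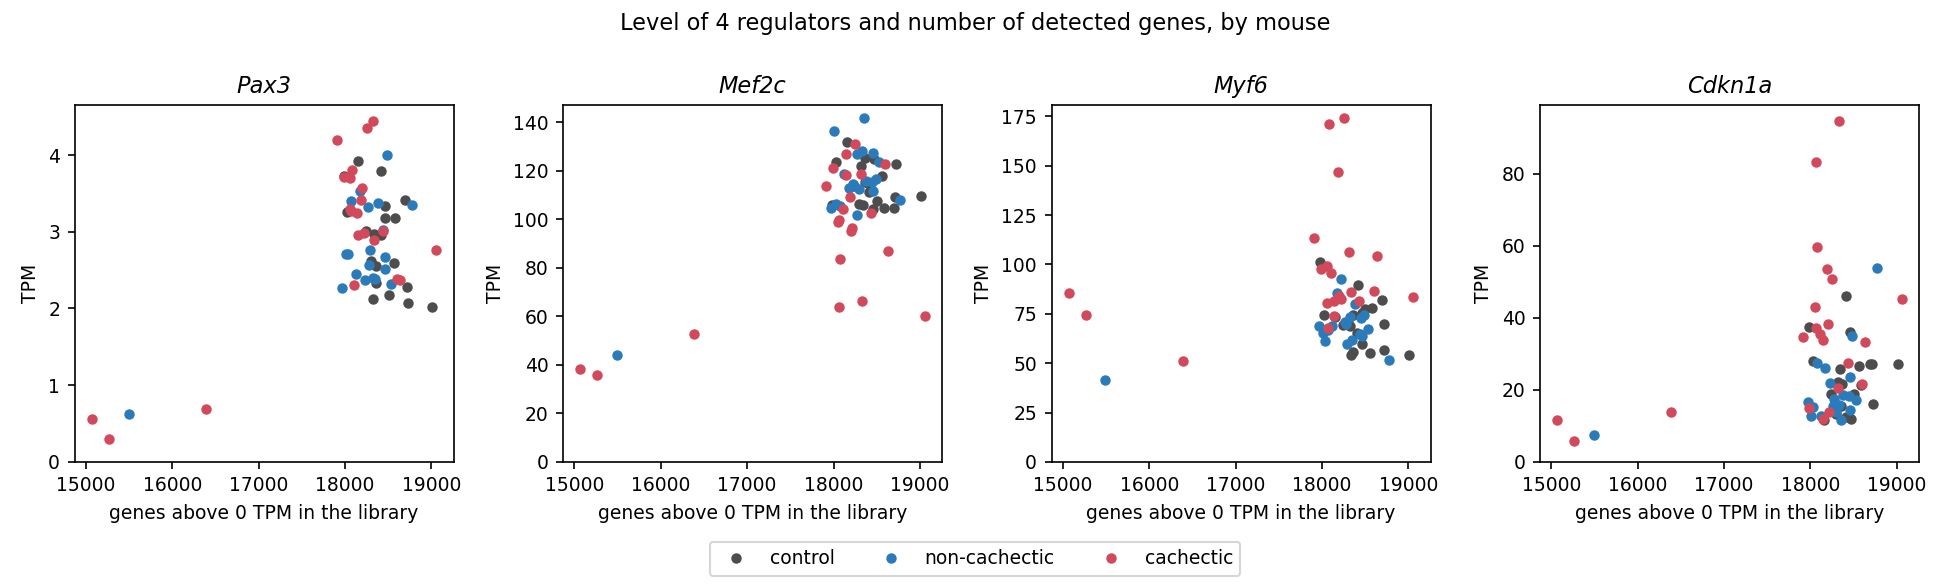
Level of Pax3, Mef2c, Myf6 and Cdkn1a in TPM (vertical axes) against the number of genes above 0 TPM in the same library (horizontal axes). Each point is 1 mouse. The 4 libraries at the left (15069 to 16389 genes) hold the lowest Pax3 and Mef2c levels of the 62, whereas their Myf6 levels spread over 41.2 to 85.4 TPM.

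The first comparison asked how the diaphragm of cachectic mice differed from that of control mice at each week. At 6 weeks Myf6 rose and at 8 weeks Mef2c fell, while the other 6 genes passed the test at neither time. At 6 weeks 1 of the 8 genes was higher and 0 were lower, against 5.62% and 1.17% of all genes tested. At 8 weeks 0 were higher and 1 was lower, against 6.65% and 8.12%. At an unadjusted p below 0.05 the counts were 2 of 8 at 6 weeks and 5 of 8 at 8 weeks, beside 20.1% and 27% of all genes. In whole muscle, a lower level from fewer cells of a type and from less RNA per cell cannot be told apart.

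**Figure D3:**
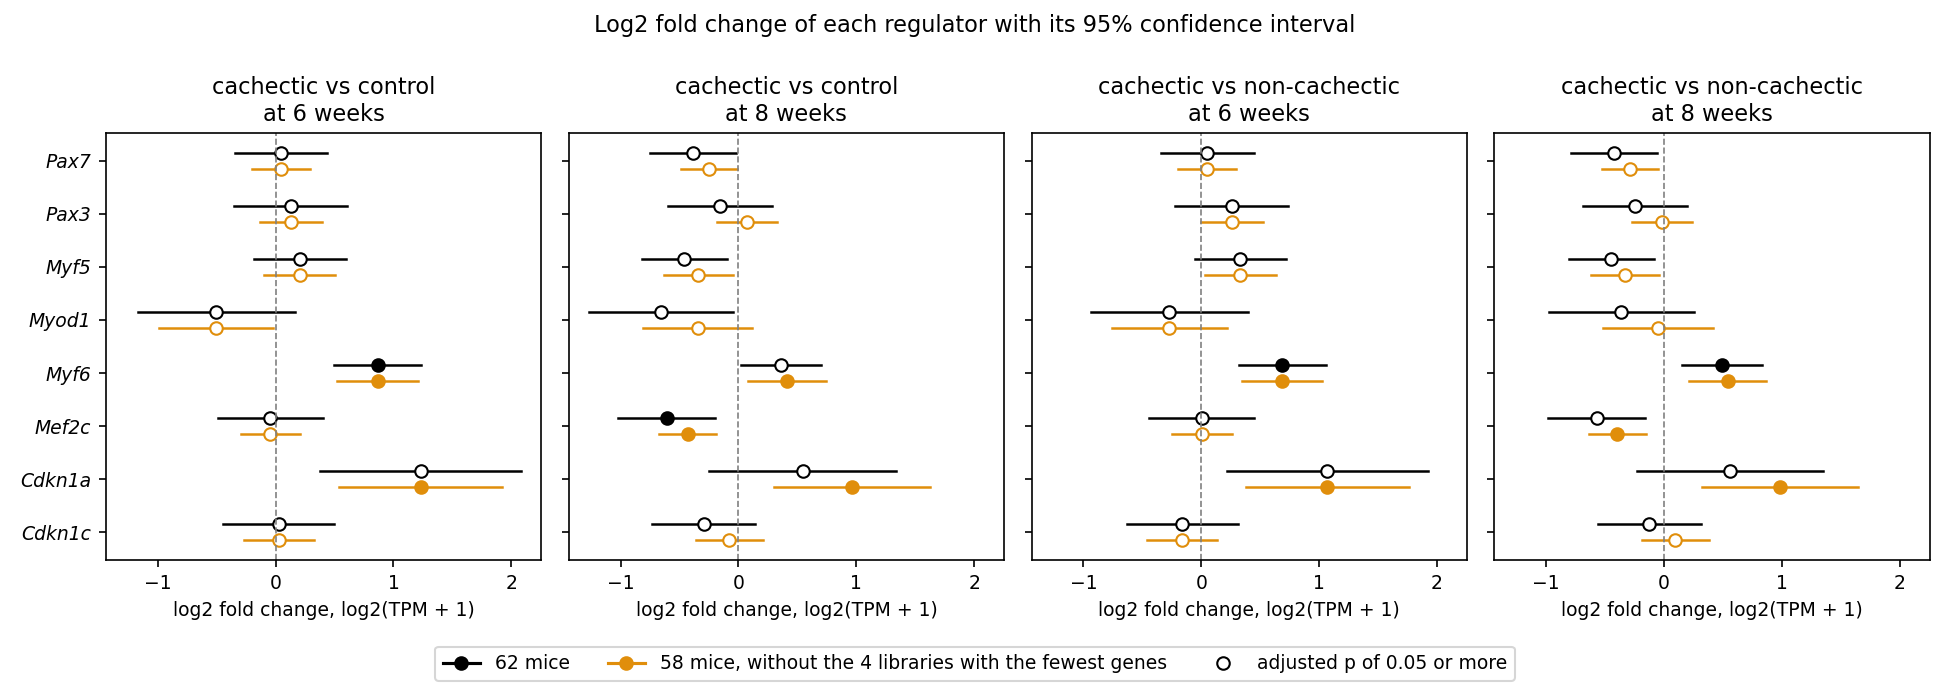
Log2 fold change (horizontal axes, log2(TPM + 1) scale) of the 8 genes in cachectic against control and against non-cachectic mice at 6 and 8 weeks, with 95% intervals from the fit. Myf6 lies above 0 against both groups at 6 weeks (0.87 and 0.69), and Mef2c lies below 0 against both at 8 weeks (−0.61 and −0.57).

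Pax7, the marker of the satellite cell itself, was measured at 1.58, 1.56, 1.56, 1.71 and 1.40 TPM in the control mice at 8 weeks. In the cachectic mice it ran from 0.107 TPM through a median of 0.901 to 1.85 TPM, and in non-cachectic mice it was 1.37, 2.06, 1.56, 1.41 and 1.81 TPM. Of the 7 cachectic mice, 5 were below all control and all non-cachectic mice, and 1 was above all control mice. The log2 fold change was −0.39 ± 0.18 (SE) against control mice (adjusted p = 0.155) and −0.43 against non-cachectic mice (adjusted p = 0.121), so neither passed the test. Without the 4 libraries that hold the fewest genes the values were −0.25 and −0.29, with adjusted p of 0.0917 and 0.0515. At 6 weeks Pax7 was 1.59 ± 0.193 TPM in cachectic mice (SD, n = 5) and 1.51 ± 0.28 TPM in control mice (SD, n = 5), a log2 fold change of 0.05 with a 95% interval from −0.35 to 0.44.

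Pax3, the relative of Pax7, passed the test in none of the comparisons. At 8 weeks it was 2.59 ± 1.12 TPM in cachectic mice (SD, n = 7) and 2.80 ± 0.703 TPM in control mice (SD, n = 5), and the log2 fold change was −0.16 with a 95% interval from −0.60 to 0.29. The cachectic mean included 0.303 TPM in replicate 3, one of the 4 libraries with few genes, and without those libraries the fold change was 0.07. At 6 weeks the fold change was 0.13 (adjusted p = 0.801), with an interval from −0.35 to 0.61.

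Myf5, the earliest myogenic factor to appear in development, was 2.74, 3.32, 2.70, 3.03 and 3.13 TPM in control mice at 8 weeks. In cachectic mice it ran from 0.771 TPM through a median of 1.84 to 2.97 TPM, with 4 of 7 below every control mouse. The fold change was −0.46 ± 0.18 (SE; adjusted p = 0.0774), and −0.45 against non-cachectic mice (adjusted p = 0.0928). Leaving out cachectic replicate 4, 5 or 7 brought the first below the threshold (adjusted p = 0.0458, 0.0335 and 0.0425), and no other single mouse did. Without the 4 libraries with few genes the fold change was −0.34 (adjusted p = 0.0614). At 4 and 6 weeks Myf5 leaned the other way, with 4 of 5 cachectic mice above all controls at each time. The 4-week values were 3.18, 2.34, 5.01, 3.26 and 3.16 TPM in cachectic mice, against 2.54, 2.86, 2.58, 1.54 and 2.06 TPM in control mice. Their fold changes, 0.39 (adjusted p = 0.915) and 0.20 (adjusted p = 0.603), did not pass.

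Myod1, which commits activated satellite cells to the muscle lineage, differed widely among the cachectic mice at 8 weeks, from 1.35 TPM through a median of 7.07 to 19.99 TPM. The control mice held 9.52, 12.4, 13.9, 12.98 and 14.4 TPM. Among the cachectic mice, 4 were below all controls and 2, replicates 4 and 5 with 16.1 and 19.99 TPM, were above all of them. The fold change of −0.66 ± 0.31 (SE) did not pass (adjusted p = 0.152), and without replicate 5 it was −0.87 (adjusted p = 0.0334). Without the 4 libraries with few genes, replicate 3 among them, it was −0.35 (adjusted p = 0.257). At 6 weeks 4 of 5 cachectic mice (4.57 to 6.93 TPM) lay below all controls (8.53 to 11.9 TPM) and replicate 3, at 12.7 TPM, lay above them, giving −0.50 ± 0.33 (adjusted p = 0.416).

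Myf6, the myogenic factor of the mature fiber, gave the clearest difference of the 8. At 6 weeks the cachectic mice held 171, 113, 174, 81.5 and 86.8 TPM, the control mice 54.0, 73.5, 59.9, 69.1 and 69.9 TPM, and the non-cachectic mice 70.9, 80.2, 92.7, 67.1 and 61.2 TPM. Every cachectic mouse was above every control mouse, and 3 of 5 were above every non-cachectic mouse. The share of all genes that separate these groups in the same way is not given here, so this describes Myf6 alone. At an unadjusted p below 0.05 from the fit, 20.1% of all genes passed against control mice at 6 weeks. The mean was 1.92 times that of the control mice, a log2 fold change of 0.87 ± 0.18 (SE; adjusted p = 0.00162), while the median of all genes tested stood at 0.17 in the same comparison. An exact two-sided permutation test gave p = 0.00794, the smallest that 5 against 5 mice allow, and 0.235 after adjustment over the 104 such tests. Leaving out single mice kept the call in 10 of 10 cases, at 0.73 to 1.00. Under median-ratio scaling, which sets the median of all genes near 0, the value was 0.67 (adjusted p = 0.045).

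Against non-cachectic mice, Myf6 at 6 weeks was higher by 0.69 ± 0.18 (SE; adjusted p = 0.0156), the only one of the 8 genes called higher, with 0 lower, against 4.28% and 1.57% of all genes. Without cachectic replicate 1 the value was 0.56 (adjusted p = 0.112), without cachectic replicate 3 it was 0.55 (adjusted p = 0.0793), and without non-cachectic replicate 5 it was 0.62 (adjusted p = 0.0587). Under median-ratio scaling it was 0.53 (adjusted p = 0.137).

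At 8 weeks Myf6 ran from 67.6 TPM through a median of 86.2 to 147 TPM in cachectic mice. The non-cachectic mice held 72.8, 66.9, 51.7, 69.8 and 64.7 TPM, and the control mice 74.5, 89.6, 70.1, 68.8 and 55.7 TPM. Of the 7 cachectic mice, 6 were above all non-cachectic mice but only 3 were above all control mice. Accordingly, the fold change was 0.49 ± 0.17 (SE; adjusted p = 0.0462) against non-cachectic mice, 1 of 8 genes higher and 0 lower beside 6.75% and 6.19% of all genes, and 0.36 ± 0.17 (adjusted p = 0.157) against control mice. The first call ended without any 1 of the 5 non-cachectic mice or of cachectic replicates 2, 5, 6 and 7, with 0.38 (adjusted p = 0.12) without replicate 5 as the smallest value. It also ended when the replicate number was added as a block (adjusted p = 0.09).

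Myf6 was already 82.6, 99.1, 97.8, 81.5 and 106 TPM in the cachectic mice at 4 weeks, with 4 of 5 above all control mice (82.0, 75.2, 65.3, 74.6 and 55.1 TPM). That fold change of 0.41 did not pass (adjusted p = 0.827). At 2 weeks the means were 74.8 ± 14.1 TPM in cachectic and 73.5 ± 19.2 TPM in control mice (SD, n = 5 each).

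Mef2c, the partner of the myogenic factors, was steady in the control mice at 8 weeks with 124, 111, 109, 122 and 115 TPM, and in non-cachectic mice with 112, 106, 108, 127 and 115 TPM. The cachectic mice ran from 36.0 TPM through a median of 86.9 to 109 TPM, and 6 of 7 lay below every control and every non-cachectic mouse. Their mean was 0.69 times that of the control mice, a log2 fold change of −0.61 ± 0.20 (SE; adjusted p = 0.0349), and −0.57 ± 0.20 (adjusted p = 0.0541) against non-cachectic mice. The lowest value came from replicate 3, the library with few genes. Without it, and with the rest of the fit unchanged, the fold change against control mice was −0.43 (adjusted p = 0.109).

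The same fold change of −0.43 passed once all 4 libraries with few genes were left out (adjusted p = 0.00419), with a smaller spread shared by the fit, and the value against non-cachectic mice was −0.40 (adjusted p = 0.00891). The Mef2c call against control mice also ended without any 1 of the 5 control mice (adjusted p = 0.0533 to 0.0734), without cachectic replicate 1 (adjusted p = 0.0735) or replicate 6 (adjusted p = 0.0615), and with the replicate block (−0.66, adjusted p = 0.0579). At 6 weeks Mef2c was 114 ± 18.2 TPM in cachectic and 116 ± 11.4 TPM in control mice (SD, n = 5 each), a fold change of −0.04 with an interval from −0.49 to 0.40.

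At 2 weeks Mef2c was also called lower in cachectic mice, at 59.9, 127, 38.4, 52.5 and 99.6 TPM against 106, 109.5, 107, 105 and 123 TPM in control mice (−0.67 ± 0.22 SE, adjusted p = 0.0256). It was 1 of 8 genes called, when 29.3% of all genes were. Replicates 3 and 4 are among the libraries with few genes, and without the 4 such libraries the fold change was −0.27 (adjusted p = 0.395). Of the 5 control mice in this comparison, 3 are among the libraries highest in liver genes. Leaving out the libraries high in liver genes also ended the call. The part of either set of libraries in the result was not tested further.

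Cdkn1a, the cell-cycle inhibitor downstream of p53, was 59.7, 34.6, 50.8, 33.9 and 21.6 TPM in cachectic mice at 6 weeks. Control mice held 25.9, 11.7, 11.8, 18.7 and 13.3 TPM, and non-cachectic mice 15.5, 18.5, 21.9, 17.3 and 15.2 TPM. Of the 5 cachectic mice, 4 were above every mouse of either group. The mean was 2.46 times that of control mice, yet the fold change of 1.23 ± 0.43 (SE) missed the threshold (adjusted p = 0.0672), as did 1.07 ± 0.43 against non-cachectic mice (adjusted p = 0.138). Without the 4 libraries with few genes, none of which is at 6 weeks, the same fold changes passed with the smaller shared spread (adjusted p = 0.00559 and 0.0172). Cachectic replicate 5, the lowest of its group, is a library high in liver genes, and without it the value was 1.43 (adjusted p = 0.0375).

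At 8 weeks the cachectic mice spread from 5.80 TPM through a median of 38.4 to 94.6 TPM, the widest range of Cdkn1a in any condition. Control mice held 27.9, 45.9, 27.1, 22.0 and 15.4 TPM, and non-cachectic mice 23.5, 27.4, 53.7, 17.4 and 18.4 TPM. Among the cachectic mice 3 were above all controls and 1, replicate 3, was below them. The fold change was 0.54 ± 0.39 (SE; adjusted p = 0.405). Without cachectic replicate 3 alone it was 0.97 (adjusted p = 0.0368), and against non-cachectic mice 0.98 (adjusted p = 0.0348).

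Cdkn1c, the inhibitor that accompanies myoblast cell-cycle exit, did not pass at 6 or 8 weeks. At 8 weeks it was 12.003 ± 4.47 TPM in cachectic mice (SD, n = 7) and 14.2 ± 3.13 TPM in control mice (SD, n = 5), a fold change of −0.29 with an interval from −0.73 to 0.14. The lowest cachectic value, 3.89 TPM, came from replicate 3, and without the 4 libraries with few genes the fold change was −0.08 (adjusted p = 0.735). At 6 weeks the fold change was 0.03, with an interval from −0.44 to 0.50.

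Leaving out the 4 libraries with few genes raised the counts of the cachectic comparisons at 6 and 8 weeks, for genes in general as well as for these 8. At 2 weeks it ended the Mef2c call against control mice instead. Against control mice, 2 of 8 were then higher at 6 weeks (Myf6 and Cdkn1a) beside 26.9% of all genes, and 0 lower beside 4.29%. At 8 weeks 2 were higher beside 22.2%, namely Myf6 (0.41, adjusted p = 0.0451) and Cdkn1a (0.97, adjusted p = 0.0189), and Mef2c was lower beside 12.4%. Against non-cachectic mice the same 2 genes were higher at 6 weeks (22.1% of all genes, and 5.18% lower) and at 8 weeks (23.2%), where Mef2c was lower (10.2%). Read against these shares, 2 of 8 and 1 of 8 were close to what was called among all genes.

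At 4 weeks 0 of the 8 genes were called against control mice, beside 0.0221% of all genes, and 0 against non-cachectic mice, beside 0.0295%. At an unadjusted p below 0.05, 2 of 8 and 0 of 8 passed, beside 5.36% and 5.13% of all genes. At 2 weeks 0 were called in cachectic against non-cachectic mice, as were 0% of all genes, and 1 of 8 passed unadjusted, beside 12.6% of all genes.

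Non-cachectic mice were set against control mice to separate bearing a melanoma from wasting. None of the 8 genes was called in any week, beside 4.43% of all genes at 2 weeks, 0% at 4 weeks, 0% at 6 weeks and 0% at 8 weeks. One passed at an unadjusted p below 0.05 at 2 weeks, beside 12.4% of all genes, and 0 at the later times. It was Cdkn1a, with 12.6 ± 3.46 TPM against 24.1 ± 8.53 TPM in control mice (SD, n = 5 each; −0.87, adjusted p = 0.388). At 8 weeks the interval for Mef2c ran from −0.48 to 0.41 and that for Myf6 from −0.50 to 0.24.

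Whether the difference between cachectic and control mice itself changed with time was tested with interaction terms, and 0 of the 8 genes passed for 8 against 4 weeks, 6 against 4 weeks or 8 against 6 weeks, as did 0%, 0% and 0% of all genes. Unadjusted, 2, 1 and 2 of 8 passed, beside 7.53%, 3.73% and 4.27% of all genes. The difference of Myf5 fell by 0.85 on the log2 scale from 4 to 8 weeks (SE 0.26, adjusted p = 0.331), and that of Cdkn1a was higher by 1.33 at 6 than at 4 weeks (SE 0.60, adjusted p = 1). The Myf5 term was −0.73 (adjusted p = 0.057) without the 4 libraries with few genes. For Myf6 the difference at 8 weeks was below that at 6 weeks by −0.50 (adjusted p = 0.623), so a peak at 6 weeks was not established. In control mice 0 of 8 genes, and 0% of all genes, were called between 4 and 8 weeks, and 0 of 8 passed unadjusted.

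Lists of related genes were counted in the same fits, 107 other tested genes in 7 lists, with members included where they belong to a list. Against control mice 6 of the 107 were called at 6 weeks and 22 at 8 weeks, and against non-cachectic mice 7 and 15. Of all genes tested, 5.62% were higher and 1.17% lower than in control mice at 6 weeks, and 6.65% and 8.12% at 8 weeks. Against non-cachectic mice the shares were 4.28% and 1.57% at 6 weeks and 6.75% and 6.19% at 8 weeks. The list counts are descriptions to be read beside these shares. Of the 20 tested genes of satellite cell identity and quiescence, 0 were called at 6 weeks, and at 8 weeks 0 were higher and 2 lower than in control mice. Those were Heyl (3.76 ± 2.04 against 7.80 ± 1.37 TPM, −1.05, adjusted p = 0.00864) and Hes1 (−0.87, adjusted p = 0.0139), both Notch target genes, the pathway that keeps satellite cells quiescent. Their fold changes were −0.75 and −0.60 without the 4 libraries with few genes. Notch is used by many other cells of the tissue, and the source of these reads was not tested.

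Among the 26 tested myogenic factors, cofactors and MEF2 genes, 1 was higher at 6 weeks, Myf6, and 2 were lower at 8 weeks, Mef2c and Smyd1. For all genes the shares were 5.62% higher at 6 weeks and 8.12% lower at 8 weeks. Smyd1, a muscle methyltransferase that helps build the sarcomere, fell by 0.63 (adjusted p = 0.0438), from 190 ± 18.7 to 131 ± 45.3 TPM, and by 0.41 without the 4 libraries with few genes. Myogenin (Myog), which drives terminal differentiation, was not called at 6 weeks (−0.47, adjusted p = 0.521) or 8 weeks (−0.43, adjusted p = 0.467), nor were Mef2a and Mef2d. Among 18 tested inhibitors of myogenic factors, 2 were lower at 8 weeks, Bhlhe41 (4.32 ± 1.75 against 9.29 ± 1.74 TPM, −1.01, adjusted p = 0.00364) and the class II deacetylase Hdac9 (−0.93, adjusted p = 0.00501), which restrains MEF2.

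Against control mice, 5.62% of all genes were higher and 1.17% lower at 6 weeks, and 6.65% and 8.12% at 8 weeks. Of 15 tested genes of myoblast fusion and immature muscle, 1 was higher and 1 lower at 6 weeks, and 2 were higher and 2 lower at 8 weeks. The lower one at both times was the embryonic and cardiac actin Actc1, at 1.11 ± 0.484 against 9.63 ± 5.76 TPM at 6 weeks (−2.08, adjusted p = 0.00405) and 1.04 ± 0.899 against 8.23 ± 3.35 TPM at 8 weeks (−2.20, adjusted p = 0.00031). Caveolin-3 (Cav3), a membrane protein of the fiber, was higher at both (0.69 and 0.44). The acetylcholine receptor subunit Chrna1, which rises in denervated muscle, was higher at 8 weeks (0.45, adjusted p = 0.0425). Jam3, an adhesion molecule, was lower (−0.39, adjusted p = 0.0104). The fusion proteins Mymk and Mymx, listed under the older names Tmem8c and Gm7325, were too low to be tested. The embryonic and neonatal myosins Myh3 and Myh8 were not called at 6 or 8 weeks.

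The fits against control mice called 5.62% of all genes higher and 1.17% lower at 6 weeks, and 6.65% and 8.12% at 8 weeks. In the list of p53 targets and growth arrest, 2 of 22 tested genes were higher and 0 lower at 6 weeks, and 5 were higher and 2 lower at 8 weeks, with medians of 0.37 and 0.14 beside 0.17 and −0.09 for all genes. At 6 weeks these were Trp53inp1 (0.93, adjusted p = 0.032) and Btg1 (0.66, adjusted p = 0.000518), an antiproliferative factor. At 8 weeks Gadd45a, a stress-induced growth arrest gene that is also induced in wasting muscle, was 49.6 ± 36.2 TPM in cachectic mice (SD, n = 7) and 14.7 ± 1.21 TPM in control mice (SD, n = 5; 1.31, adjusted p = 0.0018). Btg2 (1.12), Sesn1 (0.92) and Trp53inp1 (0.87) were also higher. The fifth higher gene was Btg1 (0.45, adjusted p = 0.00519) and the 2 lower ones were Ccng1 (−0.60) and Plk2 (−0.67), which the naming rule leaves out of this comparison and which were named after their values were seen. Without the 4 libraries with few genes, 8 of 22 were higher and 0 lower at 6 weeks, and 10 higher and 3 lower at 8 weeks, in fits that called 26.9% of all genes higher and 4.29% lower at 6 weeks and 22.2% and 12.4% at 8 weeks.

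**Figure D4:**
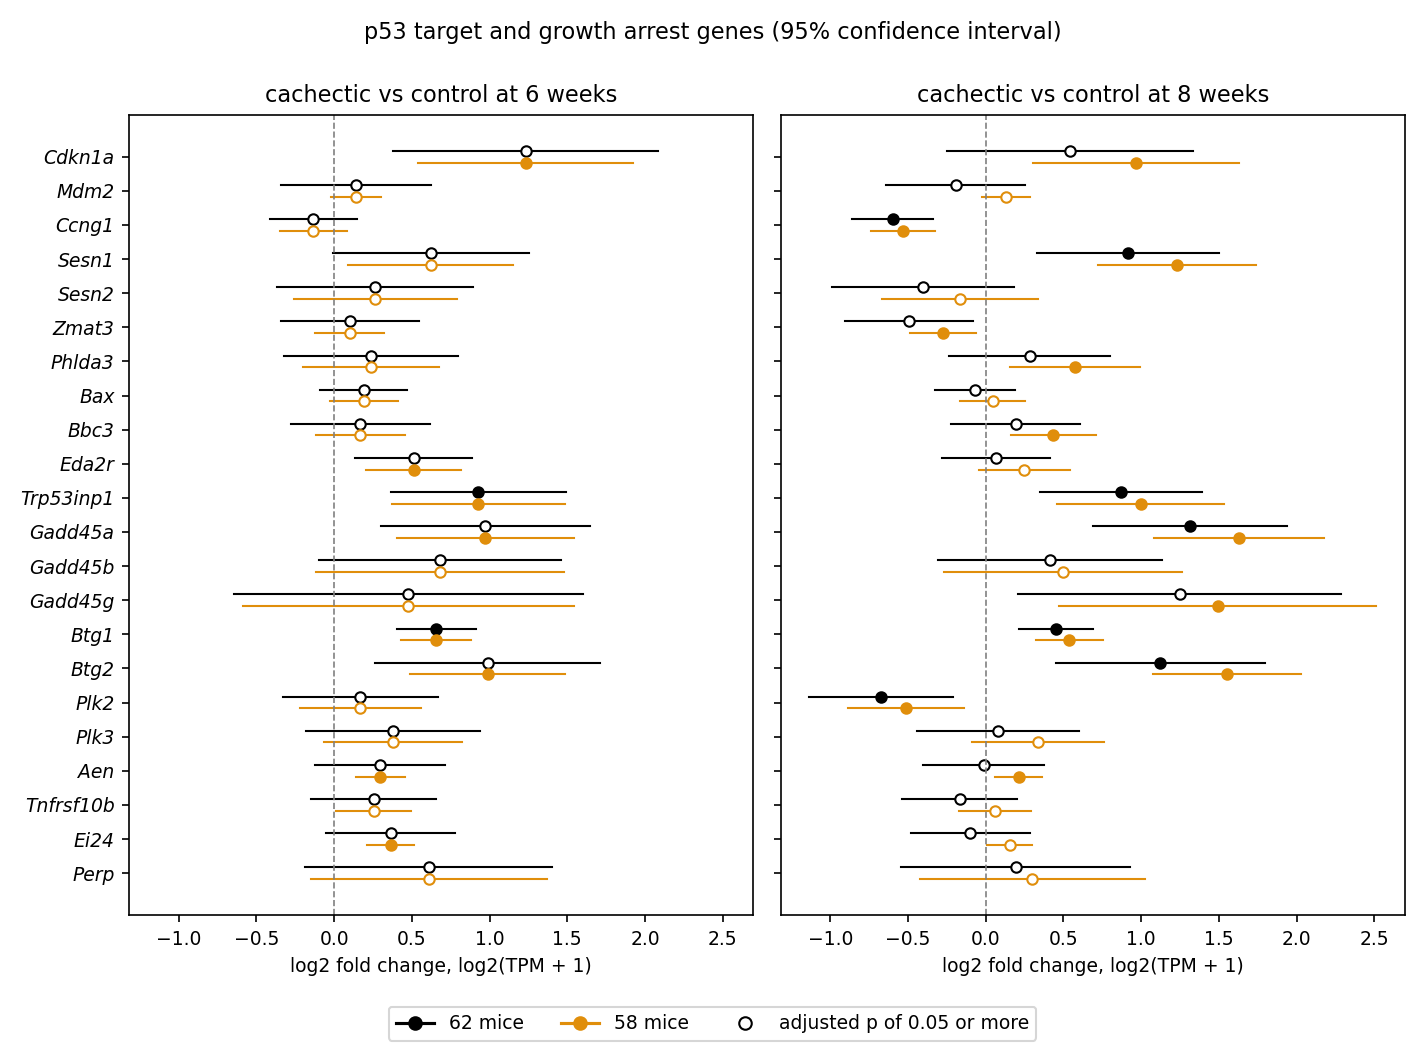
Log2 fold change of each tested gene of the p53 target and growth arrest list in cachectic against control mice at 6 and 8 weeks (log2(TPM + 1) scale), with genes at an adjusted p below 0.05 marked. Gadd45a is highest among the called genes at 8 weeks (1.31). At 8 weeks 5 of 22 are called higher and 2 lower, beside 6.65% and 8.12% of all genes.

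Of the 6 tested cyclin-dependent kinase inhibitors, 0 were called at 6 weeks and 1 at 8 weeks, Cdkn2d (p19), at 18.6 ± 3.57 against 12.6 ± 1.43 TPM (0.50, adjusted p = 0.00184), whereas Cdkn1b (p27) was not called at either time. In the cell division list of 12 tested genes, 1 was higher and 4 lower at 8 weeks, beside 6.65% and 8.12% of all genes. The replication clamp Pcna was higher (28.9 ± 3.73 against 20.9 ± 1.63 TPM, 0.44, adjusted p = 0.000103), and the centromere histone Cenpa (−0.62), Ccne2 (−0.49) and the proliferation marker Mki67 (−0.45, adjusted p = 0.043) were lower, all 3 at means below 2 TPM. The other lower gene, named after its value was seen, was Rrm2 (−0.35, adjusted p = 0.0276). Mki67 was at −0.53 without the 4 libraries with few genes.

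Markers of other cells were described in the same mice, by the number called or by their summed level. Of 10 macrophage markers, 4 were higher in cachectic than in control mice at 6 weeks and 6 at 8 weeks, beside 5.62% and 6.65% of all genes. Their summed level at 8 weeks was 305 to 1206 TPM in cachectic mice against 310.3 to 612 TPM in control mice. The 1206 TPM came from cachectic replicate 3, a library with few genes, and the next highest value was 1000 TPM. Of 5 tested neutrophil markers 2 were higher and 1 lower at 8 weeks, and of 12 markers of fibro-adipogenic progenitors 2 were higher and 4 lower. The shares of all genes at 8 weeks were 6.65% higher and 8.12% lower. The summed adipocyte markers were 2168 to 4491 TPM at 8 weeks against 1141 to 1825 TPM in control mice. The 4491 TPM was again cachectic replicate 3, and the other cachectic mice at 8 weeks ran from 2168 to 2532 TPM. The adipocyte marker Adipoq on its own overlapped at 8 weeks, at 19.1 to 192 TPM in cachectic and 10.5 to 61.7 TPM in control mice. The number of adipocyte markers called and the share of all genes that separate like the sum are not given. The summed smooth muscle and pericyte markers were 2944 to 4217 TPM in cachectic mice at 6 weeks against 1574 to 1815 TPM in control mice, with no overlap. At 8 weeks they were 459 to 4115 TPM against 1673 to 2099 TPM. The 459 TPM came from the same replicate 3, and the other cachectic mice at 8 weeks ran from 2840 to 4115 TPM. Only 1 of these 10 smooth muscle and pericyte markers was called higher at 6 weeks, and 0 were called at 8 weeks. The called marker was the intermediate filament Des (1.19, adjusted p = 0.0385), which muscle fibers also express. How far Des makes up the sum was not tested, and the share of all genes that separate as fully is not given. The part of these markers in the rise of Myf6 at 6 weeks was not tested. In each condition 10 of the 12 melanocyte markers stayed below 1 TPM in all mice, and Mlana, Tyr and Pmel did not exceed 0.522 TPM in any mouse. Sox10, which is also in the Schwann cell list, had a median of 1.94 TPM and reached 4.35 TPM. The summed melanocyte markers did not exceed 12.2 TPM. Reads were aligned to the mouse genome and the tumors came from patients, so these levels cannot show whether tumor cell RNA was present. Cdkn1a, Cdkn1c and the Notch targets are expressed in many of these cell types, and the part of cell makeup in their differences was not tested.

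The members differed in which genes followed them from mouse to mouse. Over the 62 mice, among 12101 genes with a median of at least 1 TPM, Mef2c was most like Akap6 (Pearson r = 0.95), Slc30a9 (0.93) and Ulk2 (0.93), Pax7 most like Stac3 (0.89), Tnk2 (0.88) and Scn4b (0.87), while Kat6b (0.89) and Chd2 (0.89) were among the genes most like Pax3. Cdkn1c was most like Rusc2 (0.89), Zbtb7a (0.89) and Akt1s1 (0.89), Myod1 most like Irgq (0.84), Cxx1a (0.83) and Cyp2u1 (0.83), and Myf5 most like Pik3c2b (0.80), Trib2 (0.77) and Clcn1 (0.76). Cdkn1a was most like Pim1 (0.85), Ankrd39 (0.83) and Gm13889 (0.83), and Myf6 most like Ggt5 (0.74), Tnfaip2 (0.74) and Tmem255b (0.72). These points share the 4 libraries with few genes, and the partners were ranked with those libraries included. Without them the value fell from 0.89 to 0.52 for Pax3 with Chd2. Other values without them were 0.69 for Cdkn1c with Rusc2, 0.70 for Myod1 with Irgq, 0.72 for Myf5 with Pik3c2b and 0.73 for Pax7 with Stac3. Those for Mef2c with Akap6, Cdkn1a with Pim1 and Myf6 with Ggt5 were 0.85, 0.83 and 0.76.

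Among the 28 pairs of members, Mef2c and Cdkn1a were picked out after their values were seen, and their correlation is a description. Over all 62 mice Pearson's r was 0.03 and Spearman's rho −0.30. Over the 58 mice without the libraries with few genes they were −0.65 and −0.56, and −0.60 and −0.51 after 2 more mice farthest from the Mef2c median were left out. The mice differ in week and group, and the levels share the TPM scale. With the mean of each condition taken out, Pearson's r over the 58 mice was −0.555.

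**Figure D5:**
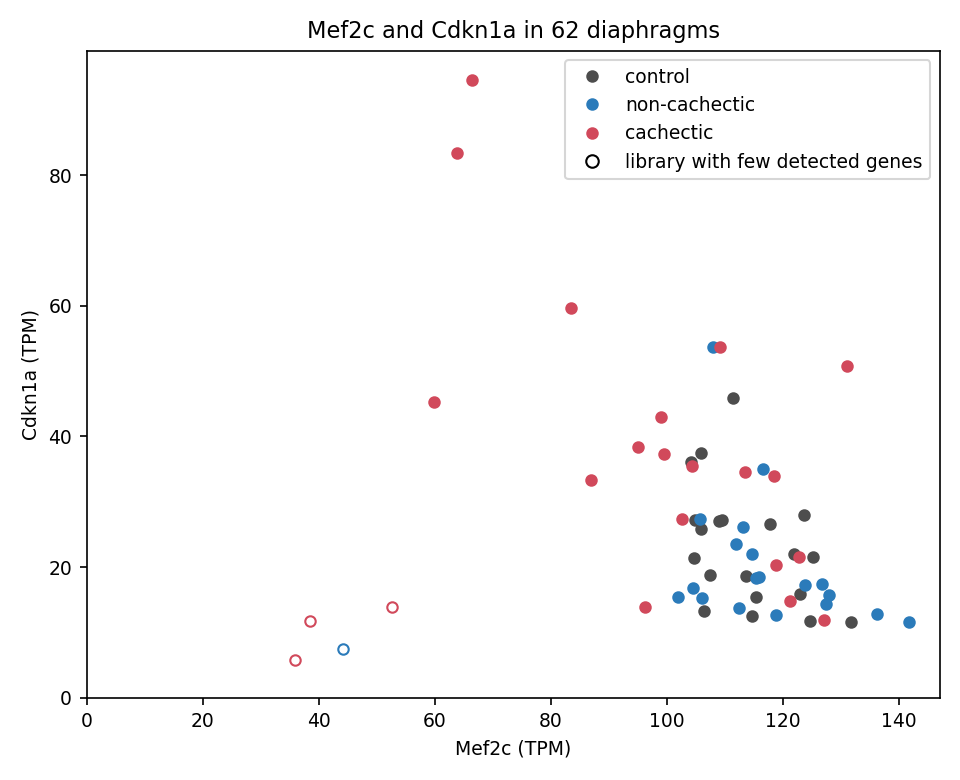
Mef2c level (horizontal axis) against Cdkn1a level (vertical axis), both in TPM, 1 point per mouse, coloured by group and with the 4 libraries with few genes marked. Over the 58 other mice the points run from high Mef2c and low Cdkn1a to low Mef2c and high Cdkn1a. Pearson's r was −0.65, computed on log2(TPM + 1). The 4 marked libraries lie low on both axes.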

How the data were processed

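Diaphragm RNA of 62 mice was sequenced by the authors as 100-base paired reads, which were trimmed, filtered and aligned to GRCm38 (mm10 in the submitters' processing notes) with CLC Genomics Workbench. The deposited values are TPM per gene, made by the authors with its RNA-seq tool. They are normalized for gene length and library total and keep no read depth. The labels name a stranded mRNA kit and the study's methods an unstranded one, and the strand setting of the counting is not given in the sources used here.

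Groups and weeks were taken from the labels. Values were analysed as log2(TPM + 1) for the 13578 of 47643 genes that reached 1 TPM in 5 or more mice. One mean per condition was fitted over all 62 mice with limma 3.58.1 (R 4.3.3; eBayes with trend), p-values were adjusted by Benjamini-Hochberg within each comparison over all genes tested, and genes at an adjusted p below 0.05 were called. A fold change is on the log2(TPM + 1) scale, which understates changes of low genes. Exact two-sided permutation tests were run on the members as well. The fit was tested on simulated data. Replicate numbers were checked for pairing and do not pair the mice. Promoter windows were taken from RefSeq. The members and gene lists were chosen with earlier results of these data known. Genes other than members were named where they belong to a list and were called in cachectic mice at 6 or 8 weeks, at most the 4 largest fold changes per list and comparison, besides Myog, Mymk, Mymx, Myh3, Myh8, Mki67, Cdkn1b, Mef2a and Mef2d and the 3 genes most like each member. One result under this rule is not reported here. Alternatives were another pseudocount, no filter, 2 other scalings, array quality weights, a replicate block, Dunn tests, fits of the compared groups alone, and fits without single mice or libraries that stood apart.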

Additional observations from a re-analysis of the deposited data

Results flagged for a closer look

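In 7 of the 96 sets of 1 gene in 1 condition, a single mouse stood far from the others by Dixon's test, which chance alone does in about 5 of 100 such sets. In 3 of them the mouse is one of the 4 libraries with few genes. Those values were Pax3 at 0.629 TPM in non-cachectic replicate 5 at 2 weeks (others 2.27 to 2.71 TPM), Pax3 at 0.303 TPM in cachectic replicate 3 at 8 weeks (others 2.30 to 3.57 TPM) and Myf6 at 41.2 TPM in the same non-cachectic mouse (others 61.7 to 68.8 TPM).

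The other 4 come from libraries that did not stand apart in genes detected. Myod1 was 12.7 TPM in cachectic replicate 3 at 6 weeks, with the other 4 mice at 4.57 to 6.93 TPM. Cdkn1a was 53.7 TPM in non-cachectic replicate 3 at 8 weeks, with the others at 17.4 to 27.4 TPM. Pax7 was 2.13 TPM in non-cachectic replicate 3 at 6 weeks against 1.23 to 1.44 TPM, and Mef2c was 123 TPM in control replicate 5 at 2 weeks, one of the libraries high in liver genes, against 105 to 109.5 TPM.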

How the results depend on the processing

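The direction of no call of a member was reversed under any alternative run. Myf6 at 6 weeks against control mice stayed called under all of them except the adjusted Dunn test (adjusted p = 0.0687). Of the 8 members, 1 was called in each of cachectic against control mice at 2, 6 and 8 weeks and against non-cachectic mice at 6 and 8 weeks, and the following counts of members called differ from those. Array quality weights gave 0, 2, 2 and 3 against control mice at 2, 4, 6 and 8 weeks, 1, 3 and 3 against non-cachectic mice at 4, 6 and 8 weeks, and 1 for each of the interactions of 6 and of 8 against 4 weeks. The same weights called more genes in general, 5707 higher and 858 lower of all genes at 6 weeks and 3287 and 1634 at 8 weeks against control mice. The adjusted Dunn test gave 0 at 2, 6 and 8 weeks against control and at 6 and 8 weeks against non-cachectic mice. Its unadjusted form, chosen after seeing the data, gave 0, 2, 2 and 3 against control mice at 2, 4, 6 and 8 weeks, 1, 3 and 2 against non-cachectic mice at 2, 6 and 8 weeks, and 1 for non-cachectic against control mice at 2 weeks. Dunn tests cannot be run for interactions. Median-ratio scaling gave 0 and 3 against control mice at 2 and 8 weeks and 0 and 4 against non-cachectic mice at 6 and 8 weeks. Rescaling without mitochondrially encoded genes gave 4 and 3 at 8 weeks against control and non-cachectic mice, with Pax7 (−0.60), Myf5 (−0.63) and Myod1 (−0.82) joining Mef2c against control mice. Fitting the compared groups alone gave 0, 2 and 0 against control mice at 2, 6 and 8 weeks and 2 and 0 against non-cachectic mice at 6 and 8 weeks. No filter gave 0 against non-cachectic mice at 8 weeks. Leaving out the libraries high in liver genes gave 0 and 2 against control mice at 2 and 6 weeks, and leaving out those with few genes gave 0, 2 and 3 at 2, 6 and 8 weeks and 2 and 3 against non-cachectic mice at 6 and 8 weeks. Leaving out single mice gave 0 to 2, 1 to 2 and 0 to 3 at 2, 6 and 8 weeks against control mice, and 0 to 1, 0 to 1 and 0 to 2 against non-cachectic mice.

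Same-numbered mice did not deviate together (median r = −0.03 over 60 pairs, with 18 above 0.1, and 0.00 over 240 other pairs). The replicate block gave 0 members called at 8 weeks against control and against non-cachectic mice and changed no other count of members. It gave 4 list genes called against non-cachectic mice at 6 weeks.

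Of the 107 list genes, 6 and 22 were called against control mice at 6 and 8 weeks and 7 and 15 against non-cachectic mice. In the same order array quality weights gave 49, 43, 53 and 47, the adjusted Dunn test 0, 9, 0 and 2, the compared groups alone 32, 6, 35 and 3, and leaving out the libraries with few genes, added after seeing the data for the lists, 31, 42, 35 and 35. The unadjusted Dunn test gave 29 against control mice at 6 weeks and 37 and 23 against non-cachectic mice at 6 and 8 weeks. Rescaling without mitochondrial genes gave 35 and 28 at 8 weeks and median-ratio scaling 24 against non-cachectic mice. Leaving out single mice gave 4 to 6, 16 to 26, 2 to 7 and 10 to 23.

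Over all genes against control mice, the 763 called higher and 159 lower at 6 weeks became 467 and 545 under median-ratio scaling, which moved the median of all genes from 0.17 to 0.01, and 382 and 455 without mitochondrial genes. The 903 and 1102 at 8 weeks became 746 and 2869 without mitochondrial genes and 3015 and 1682 without the libraries with few genes, which gave 3651 and 582 at 6 weeks. The cause of these changes was not tested. TPM keep no depth, so how far depth limits the low genes Pax7, Pax3 and Myf5 is unknown.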
